A study of Mus musculus with 18 samples.

Results

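The nuclear genes for respiratory complexes II to V and for cytochrome c were followed in mouse hearts after pressure overload. They were taken as the genes whose name starts with Sdha, Sdhb, Sdhc, Sdhd, Uqcr, Cox4, Cox5, Cox6, Cox7, Cox8 or Atp5, or is Cyc1 or Cycs, without pseudogenes, predicted genes or the assembly factors Sdhaf1 to Sdhaf4. This gave 49 of the 34714 genes in the table: 4 of complex II, 9 of complex III, cytochrome c itself, 18 of complex IV and 17 of complex V. The hearts came from C57 mice in 4 groups, called here as the labels call them: KO_TAC (5 libraries) and KO (4 libraries) carried a knockout of the gene for KCP (kielin/chordin-like protein, a secreted modulator of BMP signals), and WT_TAC (5 libraries) and WT (4 libraries) were wild type. KO_TAC and WT_TAC hearts had transverse aortic constriction (TAC), a narrowing of the aorta that makes the left ventricle pump against pressure, and KO and WT hearts had a sham operation. The series asks what loss of KCP does to cardiac remodelling under this load. The sources used here do not give the knockout design, the age of the mice, the time after surgery or the part of the heart.

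In the inner mitochondrial membrane, complex II (succinate dehydrogenase) takes electrons from succinate, complex III (cytochrome bc1 complex) passes electrons from ubiquinol to cytochrome c, and complex IV (cytochrome c oxidase) passes them on to oxygen. Complex V (ATP synthase) uses the proton gradient that the pumping complexes build to make ATP. Heart muscle is among the tissues richest in these proteins, and it uses its own isoforms of several cytochrome c oxidase subunits. All genes described here are nuclear: the subunits encoded by mitochondrial DNA were not analysed here.

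Values are in FPKM, read fragments scaled by transcript length and library total, and tests were made on log2(FPKM + 1) with limma and Benjamini-Hochberg adjustment over 11937 genes at a threshold of 0.05. Log2 changes are given with their standard error, and means with the SD. The depth of the libraries is unknown, and no label says that each library is a separate mouse. The p-values therefore cover the spread between these libraries, which may be technical. Kcp was low in all groups and not absent from the knockout hearts, at 0.494 to 0.952 FPKM in KO_TAC, 0.655 to 0.673 in KO, 0.985 to 1.48 in WT_TAC and 0.794 to 1.43 in WT. Its log2 change did not pass between KO and WT (-0.28 ± 0.12, limma adjusted p = 0.301). Nor did it pass between KO_TAC and WT_TAC (-0.27 ± 0.10, limma adjusted p = 0.0843). KO replicate 2 was left out of the fit, because its library name joins the names of replicates 3 and 4 of its group. This leaves 17 libraries, and KO replicate 2 stands outside the KO values unless it is named. The choice bears on every comparison with KO, because KO replicate 2 was the KO library nearest to WT. Its mean log2 difference from WT over the tested members was 0.01, against 0.12 to 0.25 in the other KO libraries. The library name of KO_TAC replicate 4 also joins 2 numbers, but no other library here carries either of them, and it was kept. Without it 41 members fell in KO_TAC against KO, with a median log2 change of -0.46, 1 was lower in KO_TAC than in WT_TAC, with a median of -0.05, and no interaction of genotype and TAC passed, with a median of -0.19. The gene Ndufb4c splits the libraries another way, at 4.47 to 11.2 FPKM in WT_TAC replicate 5 and all KO and KO_TAC libraries and at 35.9 to 49.4 FPKM in the other WT_TAC and WT libraries. This split nearly follows genotype. Heart muscle markers were high everywhere: 12 of 12 cardiomyocyte genes were detected.

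The promoters of 7 members that the results below turn on are shown here, because their changes ranged from deep falls to none. They are the 250 bases before the start site from RefSeq on GRCm38.p6, written 5′ to 3′ on the strand of the gene: Sdha (chr13:74350241-74350490, minus strand), Cox6a1 (chr5:115348959-115349208, minus strand), Cox7a1 (chr7:30183921-30184170, plus strand), Cox7a2 (chr9:79759854-79760103, minus strand), Cox8a (chr19:7217617-7217866, minus strand), Cox8b (chr7:140900447-140900696, minus strand) and Atp5g2 (chr15:102671048-102671297, minus strand). Capitals mark the NRF1 core CGCANGCG, on either strand, and the CCAAT box, which reads CCAAT or, on the other strand, ATTGG.
Sdha: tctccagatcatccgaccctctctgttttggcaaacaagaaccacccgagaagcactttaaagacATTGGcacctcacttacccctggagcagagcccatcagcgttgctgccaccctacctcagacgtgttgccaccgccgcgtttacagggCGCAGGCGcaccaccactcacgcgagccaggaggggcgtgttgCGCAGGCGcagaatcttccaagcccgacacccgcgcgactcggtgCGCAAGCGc
Cox6a1: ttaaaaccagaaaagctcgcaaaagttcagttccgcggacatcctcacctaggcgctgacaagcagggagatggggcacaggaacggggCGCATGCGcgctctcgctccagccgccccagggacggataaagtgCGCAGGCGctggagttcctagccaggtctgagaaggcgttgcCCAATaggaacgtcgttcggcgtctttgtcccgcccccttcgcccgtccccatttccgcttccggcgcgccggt
Cox7a1: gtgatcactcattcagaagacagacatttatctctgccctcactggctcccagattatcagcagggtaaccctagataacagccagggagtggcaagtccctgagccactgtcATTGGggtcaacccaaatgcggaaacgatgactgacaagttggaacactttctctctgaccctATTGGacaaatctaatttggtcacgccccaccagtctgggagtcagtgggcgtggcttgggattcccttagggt
Cox7a2: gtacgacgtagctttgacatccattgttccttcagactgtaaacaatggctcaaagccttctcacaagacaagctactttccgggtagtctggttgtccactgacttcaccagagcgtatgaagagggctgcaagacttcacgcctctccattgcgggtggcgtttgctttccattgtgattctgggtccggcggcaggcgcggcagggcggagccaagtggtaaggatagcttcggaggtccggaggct
Cox8a: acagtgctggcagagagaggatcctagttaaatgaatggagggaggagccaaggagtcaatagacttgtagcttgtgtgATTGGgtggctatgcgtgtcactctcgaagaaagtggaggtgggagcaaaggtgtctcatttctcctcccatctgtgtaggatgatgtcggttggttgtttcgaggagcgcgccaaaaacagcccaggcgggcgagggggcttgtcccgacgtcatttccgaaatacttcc
Cox8b: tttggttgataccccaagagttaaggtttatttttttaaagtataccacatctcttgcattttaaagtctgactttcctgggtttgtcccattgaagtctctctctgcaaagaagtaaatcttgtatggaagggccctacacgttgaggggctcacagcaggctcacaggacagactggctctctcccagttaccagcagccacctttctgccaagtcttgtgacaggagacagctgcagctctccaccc
Atp5g2: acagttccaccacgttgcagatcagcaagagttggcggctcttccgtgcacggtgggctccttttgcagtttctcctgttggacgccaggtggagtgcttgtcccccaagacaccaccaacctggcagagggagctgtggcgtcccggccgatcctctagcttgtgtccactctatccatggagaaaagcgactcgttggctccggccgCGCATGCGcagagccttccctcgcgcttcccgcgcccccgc

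NRF1 (nuclear respiratory factor) is a transcription factor known for its sites in promoters of respiratory genes. The Sdha window held 3 matches of its core and the Cox6a1 window 2. The Atp5g2 window held 1, and the Cox7a1, Cox7a2, Cox8a and Cox8b windows held none. The start site used is the first that RefSeq lists for a gene, and the Atp5g2 window lies inside the gene location given below. A promoter was matched for 37 of the 49 members, and on both strands 9 of the 37 (24.3%) held the NRF1 core, against 6.94% of 27025 promoters of the same length. The palindrome CGCATGCG, which is 1 form of that core, was in 5 member promoters (13.5%) and in 1.58% of all. The CCAAT box was in 21 (56.8%) against 34.5%, and the ETS motif CCGGAAGT in 3 (8.11%) against 2.93%. The SP1 box GGGCGG was as common in members (12, or 32.4%) as in all promoters (32.9%). The estrogen-related receptor motif TNAAGGTCA was in 1 (2.7%) against 1.14% and the YY1 motif ANATGGCGG in 0 against 0.84%. The NRF1 and YY1 motifs were shortened after a first search with longer forms, so these shares are descriptions and no test of an excess. They are matches of letters in a window and were not tested against the expression changes, by which the 7 windows shown were picked.

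After TAC the subunits of all 4 complexes were lower together, in both genotypes. In WT_TAC hearts 34 of the 47 members tested fell and 0 rose against WT, with a median log2 change of -0.24. All WT_TAC libraries lay below all WT libraries in 35 of 47 and above them in 0, against 11.1% and 10.5% of all genes. Over all tested genes 21.9% were called in this comparison, 11.2% as lower and 10.7% as higher, and the median change was -0.01. In KO_TAC hearts 42 of 47 fell and 0 rose against KO, with a median of -0.48. All KO_TAC libraries lay below all KO libraries in 41 of 47 and above them in 0, against 16% and 19.8% of all genes. Here 38.8% of all genes were called, 17.7% as lower and 21.1% as higher, with a median of 0.01. All 34 members that fell in WT_TAC also fell in KO_TAC. The 8 called in KO_TAC alone included Sdhd, Uqcr10, Cycs, Cox6b1 and Atp5g2. Without WT replicate 4, 23 members fell in WT_TAC. The members shifted together within a library, so counts of members are not independent of each other.

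By complex, the WT_TAC medians were -0.30 for complex II, -0.21 for complex III, -0.25 for complex IV and -0.25 for complex V. The KO_TAC medians, against KO, were -0.59, -0.46, -0.49 and -0.50 in the same order. Averaged over its genes within a library, complex II was further below the WT mean than complex III in 5 of 5 KO_TAC and 5 of 5 WT_TAC libraries. It was also further below than complex V in 5 of 5 libraries of both groups, and than complex IV in 5 of 5 KO_TAC and 4 of 5 WT_TAC libraries. In KO sham hearts complex II was likewise below complexes III and V in 3 of 3 libraries and below complex IV in 2 of 3. Among the other 3 complexes no pair kept 1 order in all 5 libraries of either TAC group. Complex III was further below than complex IV in 1 of 5 KO_TAC and 1 of 5 WT_TAC libraries. It was further below than complex V in 1 of 5 and 2 of 5, and complex IV than complex V in 1 of 5 and 3 of 5. Complex II has 4 genes and the differences between complexes were not tested. Among the KO_TAC libraries, replicate 4 was lowest for each complex, at -0.56 for complex II and -0.48 for complex V, while replicate 2 was at -0.35 and -0.21. With KO replicate 2 in the fit 43 members fell in KO_TAC, and with it in place of replicates 3 and 4, an alternative chosen after seeing the data, 38 fell with a median of -0.36.

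**Figure D1:**
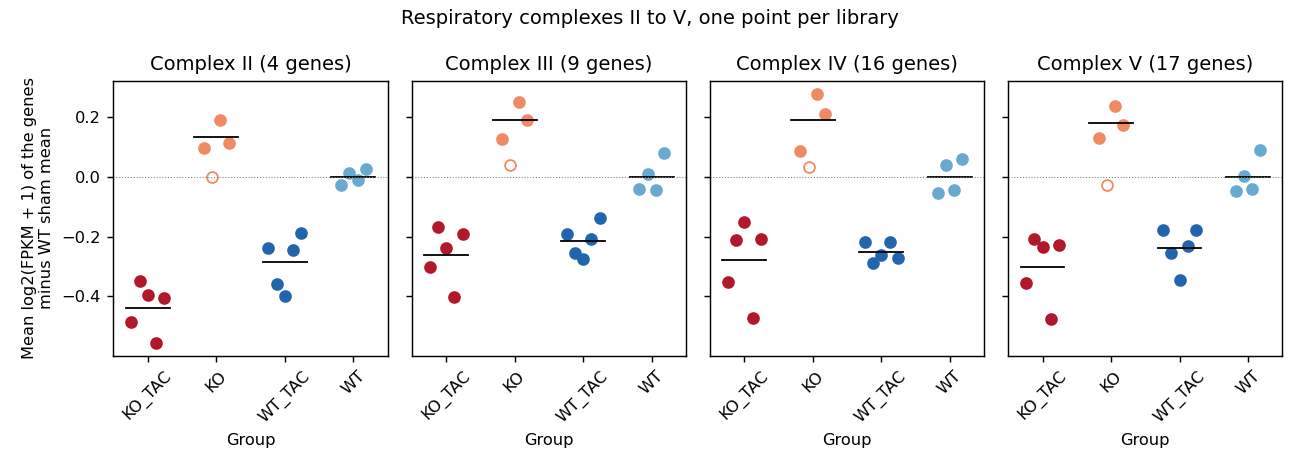
Mean log2(FPKM + 1) of the tested genes of each complex in every library, minus the mean of the WT libraries, with the group mean as a line and KO replicate 2, outside the fit, as an open circle. In each complex all KO_TAC libraries lie below all KO libraries and all WT_TAC below all WT libraries, and KO replicate 2 lies near 0, below the other KO libraries.

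Complex II fell in all of its parts in KO_TAC, and in 3 of 4 genes in WT_TAC. Sdha (chr13:74322254-74350280), the flavoprotein subunit that oxidises succinate, was at 347, 344, 318, 378 and 394 FPKM in WT_TAC, against 488, 487, 472 and 479 FPKM in WT. In KO_TAC it was at 317, 323, 328, 296 and 304 FPKM, against 495, 554 and 486 FPKM in KO. The TAC and sham libraries did not overlap in either genotype, and the mean was 74.03% of sham in WT_TAC and 61.3% in KO_TAC. The log2 changes were -0.44 ± 0.06 in WT_TAC (limma with Benjamini-Hochberg adjusted p = 8.5e-05) and -0.70 ± 0.06 in KO_TAC (adjusted p = 4.18e-07).

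Sdhc, 1 of the membrane anchors that hold the complex, fell too. It averaged 293 ± 19.9 FPKM in WT_TAC and 372 ± 13.8 FPKM in WT (n = 5 and 4), a log2 change of -0.35 ± 0.06. In KO_TAC it averaged 264 ± 19.6 FPKM, against 426 ± 20.6 FPKM in KO (n = 5 and 3), a log2 change of -0.69 ± 0.07. Sdhb, the iron-sulfur subunit that carries electrons from the flavoprotein to the membrane, changed by -0.25 ± 0.06 in WT_TAC and -0.50 ± 0.07 in KO_TAC. Sdhd, the other anchor, was the least changed of the 4, with 242, 217, 214, 227 and 220.2 FPKM in WT_TAC, against 238, 235, 251 and 247 FPKM in WT. These groups overlapped, and the change of -0.12 ± 0.05 did not pass (Benjamini-Hochberg adjusted p in limma = 0.128). It fell in KO_TAC, with a log2 change of -0.39 ± 0.06.

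Complex III fell in all 9 genes in KO_TAC and in 7 of 9 in WT_TAC. Uqcrc1, a core protein of the matrix side, was the most changed in both genotypes, with 688, 662, 647, 672 and 774 FPKM in WT_TAC and 818, 880.2, 777 and 894 FPKM in WT. In KO_TAC it was at 619, 709, 665, 579 and 663 FPKM, and at 909, 994 and 909 FPKM in KO. No TAC library reached the lowest sham library of its genotype, and the log2 changes were -0.29 ± 0.07 and -0.54 ± 0.07 (limma with Benjamini-Hochberg adjusted p = 0.00435 and 1.57e-05). Its partner Uqcrc2 changed by -0.21 ± 0.06 in WT_TAC and -0.43 ± 0.06 in KO_TAC. Of the redox subunits, Uqcrfs1 (the Rieske iron-sulfur protein) changed by -0.19 ± 0.06 and -0.53 ± 0.07, and Cyc1 (cytochrome c1) by -0.21 ± 0.07 and -0.45 ± 0.08. Both passed in each genotype. In WT_TAC the Uqcrfs1 call ended without WT replicate 1, 2 or 4 or WT_TAC replicate 2, 3 or 4, and the Cyc1 call without WT replicate 2, 3 or 4 or WT_TAC replicate 1, 2, 3 or 4, with limma adjusted p up to 0.0887 and 0.118. Uqcr10, a small subunit near cytochrome c1, was the least changed of the complex, by -0.12 ± 0.06 in WT_TAC, which did not pass, and by -0.27 ± 0.07 in KO_TAC, which did.

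Cycs (chr6:50562563-50566538), the mobile carrier between complexes III and IV, was called in KO_TAC and not in WT_TAC. WT_TAC libraries held 244, 238, 216, 234 and 242 FPKM, against 247, 255, 249.9 and 249.7 FPKM in WT; no library overlapped, yet the change of -0.09 ± 0.07 did not pass (Benjamini-Hochberg adjusted p in limma = 0.36). KO_TAC libraries held 203, 259, 236, 204 and 252 FPKM, against 320.0, 295 and 331 FPKM in KO, a change of -0.45 ± 0.07 (adjusted p = 0.000122). KO replicate 2 held 259 FPKM, just above the WT libraries, and the difference between the genotypes in this change did not pass (interaction -0.36 ± 0.10, limma adjusted p = 0.0791).

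Complex IV held both the deepest falls and the members that stayed nearest to sham. Of 16 tested genes 11 fell in WT_TAC and 12 in KO_TAC. Cox5a and Cox5b, subunits that surround the catalytic core, changed by -0.21 ± 0.06 and -0.18 ± 0.06 in WT_TAC and by -0.50 ± 0.07 and -0.41 ± 0.06 in KO_TAC, and all 4 changes passed. In WT_TAC the Cox5b call ended without WT replicate 1, 2 or 4 or WT_TAC replicate 4 and the Cox5a call without WT replicate 4, with limma adjusted p up to 0.0892 and 0.0671.

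The heart and skeletal muscle isoforms of cytochrome c oxidase fell in both genotypes. Cox7a1 (chr7:30184144-30186078), the muscle form of subunit VIIa, was at 1008, 1041, 987, 992 and 1139.6 FPKM in WT_TAC and at 1428, 1544, 1411 and 1523 FPKM in WT. In KO_TAC it was at 743, 1141, 872, 762 and 907 FPKM, against 1774, 1757 and 1826 FPKM in KO. The groups did not overlap in either genotype, and the mean was 70.00% of sham in WT_TAC and 49.6% in KO_TAC. KO_TAC replicate 2 kept the most message of its group. The log2 changes of -0.52 ± 0.09 and -1.03 ± 0.10 were past the threshold (limma with Benjamini-Hochberg adjusted p = 0.000744 and 6.26e-07).

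Cox8b, the muscle form of subunit VIII in the mouse, was at 1149.7, 1088, 1001, 1057 and 1066 FPKM in WT_TAC, against 1207, 1273, 1272 and 1403 FPKM in WT. It was at 942, 1124, 937, 828 and 1057 FPKM in KO_TAC, against 1382, 1509.7 and 1559 FPKM in KO. The WT_TAC libraries all lay below the WT libraries, and the KO_TAC libraries lay below the KO libraries by a wider margin. Cox6a2 (chr7:128205435-128206387), the muscle form of subunit VIa and the member with the highest level per length in WT, was at 2735, 2508, 2639, 2731 and 2263 FPKM in WT_TAC and 2972, 3171, 3074 and 3222 FPKM in WT. In KO_TAC it was at 2130.0, 2338, 2422, 2329.6 and 2394 FPKM, and at 2742, 3742 and 2889.6 FPKM in KO, where replicate 3 was far above the other libraries. The log2 changes were -0.26 ± 0.07 and -0.61 ± 0.08 for Cox8b and -0.27 ± 0.08 and -0.42 ± 0.08 for Cox6a2, in WT_TAC and KO_TAC, and all 4 passed. Without WT replicate 4 the WT_TAC calls of Cox8b, Cox6a2 and Cox7a2 ended, with limma adjusted p of 0.0661, 0.0514 and 0.0606. Cox6a2 shares exon bases with Itgad on the opposite strand, and the sources used here do not say whether the counting used strand.

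Of the widely expressed counterparts, 2 of 3 were not called. Cox6a1 had 178, 199.7, 200.0, 163 and 173 FPKM in WT_TAC, against 152, 177, 149 and 174 FPKM in WT, and 184, 206, 197, 181 and 219 FPKM in KO_TAC, against 191, 193 and 207 FPKM in KO. Cox8a had 355, 340.0, 330.3, 335 and 282 FPKM in WT_TAC, against 299.8, 317, 302 and 324 FPKM in WT, and 355, 344, 351, 325 and 395 FPKM in KO_TAC, against 335, 366 and 407 FPKM in KO. All 4 pairs of groups overlapped, and the log2 changes of 0.16 ± 0.07 and 0.00 ± 0.08 for Cox6a1 and of 0.08 ± 0.07 and -0.06 ± 0.08 for Cox8a did not pass (Benjamini-Hochberg adjusted p in limma = 0.13, 0.996, 0.482 and 0.579). Cox7a2, the common form of subunit VIIa, did fall, with log2 changes of -0.24 ± 0.07 in WT_TAC and -0.64 ± 0.07 in KO_TAC. Cox7a2l, a related protein tied to supercomplexes of complexes III and IV, is named here after its values were seen. It changed by 0.10 ± 0.06 in WT_TAC and -0.06 ± 0.06 in KO_TAC and did not pass in either genotype.

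The share of the muscle form in each pair was computed per library as its FPKM over the sum of both forms. Cox8b made up 76.6% ± 1.49 in WT_TAC and 80.5% ± 0.573 in WT, and 73.3% ± 1.87 in KO_TAC and 80.1% ± 0.687 in KO. Cox7a1 made up 79.7% ± 1.72 in WT_TAC and 82.6% ± 0.425 in WT, and 78.5% ± 2.32 in KO_TAC and 82.8% ± 1.11 in KO. Cox6a2 made up 93.3% ± 0.744 in WT_TAC and 95.02% ± 0.292 in WT, and 92.2% ± 0.467 in KO_TAC and 93.97% ± 0.982 in KO. Each TAC mean was thus below its sham mean (SD, n = 5, 4, 5 and 3 in the order given), while the muscle form stayed the main one in all libraries. By 2-sided exact permutation tests over libraries, p was 0.0159 and 0.0179 for Cox8b, 0.0238 and 0.0714 for Cox7a1 and 0.0159 and 0.0179 for Cox6a2, in WT_TAC and KO_TAC. With 20 such tests the lowest Benjamini-Hochberg adjusted value of these exact permutation tests was 0.0595, so no share difference passed. In KO_TAC no exact test can go below p = 0.0179.

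**Figure D2:**
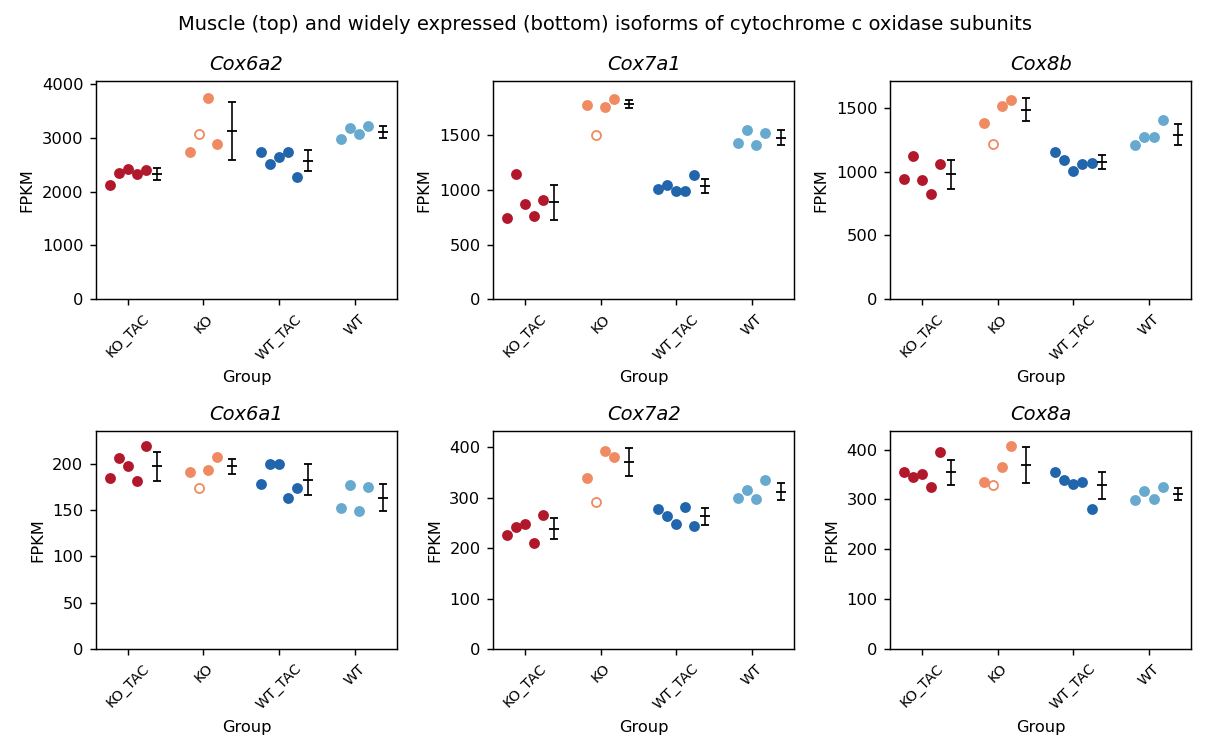
FPKM of the muscle forms (top row) and the widely expressed forms (bottom row) of 3 cytochrome c oxidase subunits in each library, with mean and SD beside the points; open circles are KO replicate 2, outside the mean. The 5 KO_TAC libraries of Cox7a1 lie between 743 and 1141 FPKM, below all KO libraries, while those of Cox6a1 and Cox8a overlap KO.

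The remaining forms were low. Cox4i2, a form of subunit IV known from lung and from oxygen sensing, was at 11.6 ± 1.23 FPKM in WT_TAC and 11.98 ± 1.24 in WT, and at 9.92 ± 2.18 in KO_TAC and 11.9 ± 1.15 in KO. Cox4i1, the common form, was near 1668 FPKM in WT and fell with a log2 change of -0.28 ± 0.07 in WT_TAC and -0.47 ± 0.07 in KO_TAC. The changes of Cox4i2 did not pass, but its change in KO_TAC passed without KO_TAC replicate 2 and with KO replicate 2 in the fit (limma adjusted p = 0.0235 and 0.0457). Cox6b2, a form known from testis, was at 0.184, 0, 0.617, 0.807 and 0.442 FPKM in WT_TAC, against 1.90, 3.42, 2.47 and 1.45 FPKM in WT. It was at 1.22, 0.818, 3.93, 0.289 and 1.05 FPKM in KO_TAC, against 2.81, 4.32 and 3.05 FPKM in KO. KO_TAC replicate 3 reached the KO range, and the 4 other KO_TAC libraries lay below it. The log2 changes of -1.23 ± 0.30 and -0.98 ± 0.32 passed (limma with Benjamini-Hochberg adjusted p = 0.00796 and 0.0255), and the KO_TAC call ended without KO replicate 3, KO replicate 4 or KO_TAC replicate 4 (adjusted p up to 0.109). With a pseudocount of 0.1 the KO_TAC change was -1.56 and did not pass. Its counterpart Cox6b1, at 1215 FPKM in WT, changed by -0.16 ± 0.06 in WT_TAC, which did not pass, and fell in KO_TAC, with a change of -0.31 ± 0.07. The WT_TAC change passed without KO_TAC replicate 4 or 5, and the KO_TAC call ended with KO replicate 2 in place of replicates 3 and 4 (limma adjusted p = 0.0442, 0.0430 and 0.368). Cox7b2, another testis form, reached at most 0.461 FPKM and Cox8c was listed at 0 in all libraries, so neither was tested.

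Complex V fell in 13 of 17 genes in WT_TAC and in 16 of 17 in KO_TAC. Atp5b, the catalytic beta subunit, was at 2569.8, 2464, 2203, 2538 and 2768 FPKM in WT_TAC and 3016, 3214, 2967 and 3195 FPKM in WT. In KO_TAC it was at 2606, 2585, 2649.9, 2272 and 2543 FPKM, and at 3358, 3650.1 and 3402 FPKM in KO. The groups did not overlap, and replicate 4 stood below the other KO_TAC libraries. The head subunits changed alike: in WT_TAC and KO_TAC Atp5b changed by -0.31 ± 0.06 and -0.46 ± 0.07, the alpha subunit Atp5a1 by -0.32 ± 0.06 and -0.51 ± 0.06, and the gamma subunit Atp5c1, which turns inside the head, by -0.31 ± 0.05 and -0.50 ± 0.06. Atp5o, part of the stalk that keeps the head still, changed by -0.28 ± 0.07 and -0.53 ± 0.07. The lowest change of the complex was that of the epsilon subunit Atp5e, with 364, 363, 339, 367 and 332 FPKM in WT_TAC, against 395, 463, 443 and 504 FPKM in WT, and 295, 333, 343, 275 and 308 FPKM in KO_TAC, against 459.6, 497 and 474 FPKM in KO. No TAC library overlapped its sham group, and the log2 changes were -0.35 ± 0.07 and -0.62 ± 0.08 (limma with Benjamini-Hochberg adjusted p = 0.00201 and 7.52e-06).

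Atp5d, the delta subunit of complex V, did not pass in either genotype. It was at 587, 499, 508, 469 and 760.0 FPKM in WT_TAC, against 481, 538, 545 and 844 FPKM in WT, and at 538, 771, 738, 482 and 772 FPKM in KO_TAC, against 906, 946 and 649 FPKM in KO. The values of 1 group differed more among themselves than the groups did, and the changes of -0.08 ± 0.20 and -0.34 ± 0.21 did not pass (Benjamini-Hochberg adjusted p in limma = 0.81 and 0.22). In WT_TAC the complex V genes Atp5g1, Atp5g2 and Atp5mpl did not pass either, with changes of -0.14, -0.14 and -0.12 (limma adjusted p = 0.17, 0.184 and 0.159); Atp5g1 and Atp5mpl were named after their values were seen. The exons of Atp5d overlap those of Cbarp on the opposite strand, so the reads of the pair may not be told apart. In all, 12 of the 47 members placed in the GENCODE annotation share exon bases with another annotated gene. For 5 members (Atp5h, Atp5k, Atp5l, Atp5o and Uqcrb) the annotation holds a copy at least 95% identical over at least 50% of the transcript; no such copy is listed in the table, and the sources used here do not say how reads shared with one were counted.

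**Figure D3:**
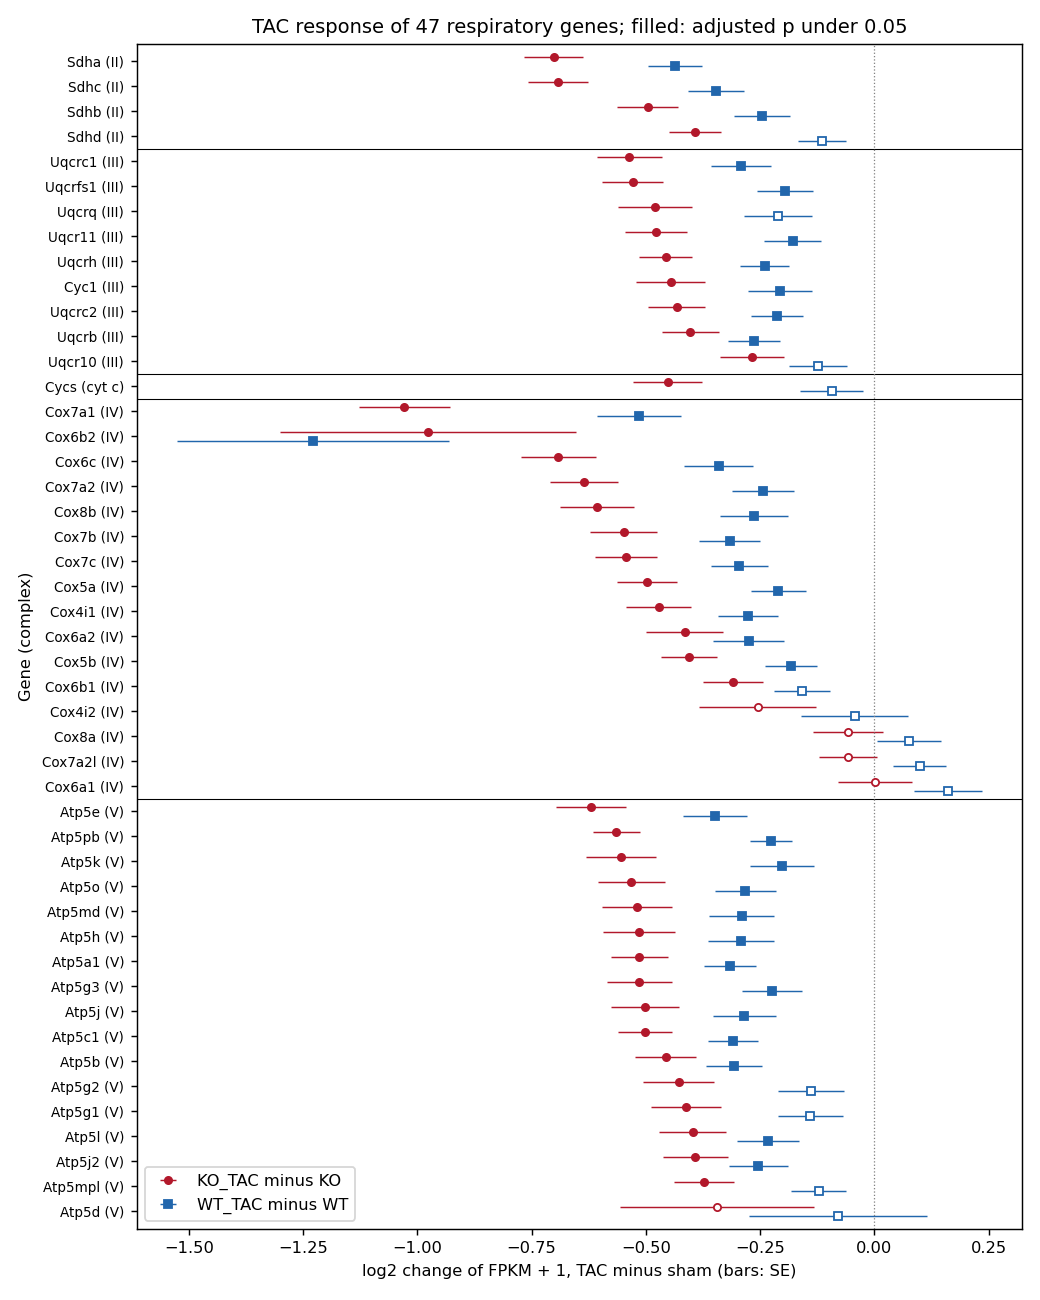
Log2 change of FPKM + 1 after TAC with its standard error for the 47 tested genes, grouped by complex, in KO_TAC against KO (circles) and WT_TAC against WT (squares); filled symbols have an adjusted p under 0.05. Circles lie to the left of squares for 46 genes, all but Cox6b2, and Cox6a1, Cox8a and Cox7a2l lie nearest to 0 or above it.

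In bulk heart RNA, fewer cells of a type and less RNA per cell cannot be told apart. The members made up 7.55% to 8.50% of all FPKM in KO_TAC and 10.6% to 11.3% in KO, and 8.15% to 8.77% in WT_TAC and 9.95% to 10.5% in WT. Markers of some other cells moved with TAC. The 10 fibroblast markers summed to 631 to 1009 FPKM in KO_TAC and 352 to 405 in KO. In WT_TAC they summed to 427 to 776 FPKM and in WT to 348 to 457. Of them 8 rose and 0 fell in KO_TAC, and 5 rose and 1 fell in WT_TAC. The 9 macrophage markers summed to 345 to 463 FPKM in KO_TAC and 246 to 269 in KO. In WT_TAC they summed to 271 to 420.3 FPKM and in WT to 212 to 366, and these ranges overlapped. Of them 6 rose in KO_TAC and 1 in WT_TAC, and 0 fell, where 21.1% and 10.7% of all genes were called higher. Of 8 endothelial markers 2 rose in KO_TAC and 0 in WT_TAC, and 0 fell. None of the 7 smooth muscle and pericyte markers or the 5 erythroid markers was called in either genotype. The 12 cardiomyocyte markers summed to 39344 to 43457 FPKM in KO_TAC and 48658 to 51527 in KO, and to 43328 to 47426 in WT_TAC and 47370.4 to 49259 in WT. Of these 12, 1 was higher and 8 were lower in KO_TAC, and 3 were higher and 5 lower in WT_TAC, so the sum itself moved with TAC. Members made up 75.0% to 83.8% of that sum in KO_TAC and 90.0% to 94.2% in KO, and 74.1% to 80.3% in WT_TAC and 83.7% to 88.0% in WT. Actc1, a cardiac actin, holds a large share of it and rose in WT_TAC, with a log2 change of 0.33 ± 0.06 (limma adjusted p = 0.000851), while its change of 0.07 ± 0.07 in KO_TAC did not pass. With Actc1 left out of the sum, an alternative chosen after seeing the data, the members came to 99.3% to 111% in KO_TAC and 113% to 115% in KO, and to 98.3% to 104% in WT_TAC and 103% to 107% in WT, where the ranges overlapped. The 7 skeletal muscle markers summed to 1240 to 1653 FPKM in KO_TAC and 1548 to 1997 in KO, and to 1438 to 1580 in WT_TAC and 1620 to 1751 in WT, with Myh4 at 0 in all groups. Of their 2 tested genes Tnni2 fell in both genotypes, with log2 changes of -0.99 ± 0.18 in KO_TAC and -0.54 ± 0.16 in WT_TAC, and Ckmt2, a muscle creatine kinase of mitochondria, fell in KO_TAC, with a change of -0.29 ± 0.08 (limma adjusted p = 0.000257, 0.0225 and 0.0122). The 7 brown fat markers summed to 627 to 894 FPKM in KO_TAC and 659.8 to 730 in KO, and to 602 to 738 in WT_TAC and 612 to 680 in WT, with Ucp1 and Elovl3 at 0 in all groups. Of their 2 tested genes Cidea was higher, by 0.37 ± 0.10 in KO_TAC and 0.37 ± 0.09 in WT_TAC (limma adjusted p = 0.00804 and 0.00851). The other, Fabp4, changed by 0.14 in KO_TAC and 0.02 in WT_TAC and did not pass. The remaining skeletal muscle and brown fat markers were below the filter. Each sum thus rests mostly on its 2 tested genes and does not measure the amount of skeletal muscle or brown fat. The part of other cell types in the falls was not tested.

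Without TAC, most subunits stood slightly higher in KO than in WT, and 2 passed. Atp5g2 (chr15:102662864-102672352), 1 of 3 genes for the ring subunit c that turns with the proton flow, was at 361, 420.5 and 385 FPKM in KO, against 268, 282, 296 and 306 FPKM in WT, and KO replicate 2 was at 352 FPKM. Cycs was at 320.0, 295 and 331 FPKM in KO, against 247, 255, 249.9 and 249.7 FPKM in WT. In both, all 3 KO libraries were above all WT libraries. The log2 changes were 0.43 ± 0.08 for Atp5g2 (limma with Benjamini-Hochberg adjusted p = 0.0123) and 0.33 ± 0.08 for Cycs (adjusted p = 0.0459). Of all tested genes 1.26% were called, 0.645% as higher and 0.62% as lower. The changes of 44 of 47 members lay above 0, with a median of 0.18 against -0.01 for all genes, and 27 members had every KO library above every WT library, against 7.27% of all genes, while none had the reverse, against 8.15%. The medians were 0.13 for complex II, 0.18 for complex III, 0.21 for complex IV and 0.17 for complex V.

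These differences rested on few libraries. The members shifted together within a library, by a mean log2 of 0.12, 0.25 and 0.19 from WT in KO replicates 1, 3 and 4. Counts of members are therefore not separate evidence. The Atp5g2 call ended without KO replicate 3 (limma adjusted p = 0.0818). The Cycs call ended without any of 11 libraries (WT replicates 1 to 4, WT_TAC replicates 1, 2 and 4, KO replicates 1, 3 and 4, and KO_TAC replicate 3), with adjusted p up to 0.167. With KO replicate 2 in the fit only Atp5g2 passed (adjusted p = 0.00918; Cycs 0.114), and 45 of 47 changes lay above 0 with a median of 0.14. With KO replicate 2 in place of replicates 3 and 4 the median was 0.055 and no member passed. KO replicate 2 lay between replicates 3 and 4 in 43.1% of all tested genes but in 4 of 47 members; KO replicate 1 lay between them in 14. With a term for the split shown by Ndufb4c no member passed, and Atp5g2 had a change of 0.08. Only WT_TAC holds libraries from both sides of the split, so this term rests on WT_TAC replicate 5 alone. It carries the deviation of that 1 library into the comparison. Atp5g2 was at 318.5 FPKM in WT_TAC replicate 5, above the other WT_TAC libraries, and genotype and this split cannot be told apart in sham hearts.

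After TAC, the KO_TAC hearts held slightly less of 4 subunits than the WT_TAC hearts, and no member passed as higher. Atp5pb (chr3:105942698-105959263), the b subunit of the outer stalk, was at 559, 613, 609.6, 551 and 624 FPKM in KO_TAC, against 696, 670.4, 635, 696 and 676 FPKM in WT_TAC, with no overlap. Sdhd was at 196, 213, 202, 177 and 201 FPKM in KO_TAC, against 242, 217, 214, 227 and 220.2 FPKM in WT_TAC, also with no overlap. Sdha and Atp5c1 were lower with 1 or more libraries in common range, at 314 ± 13.4 and 902 ± 55.9 FPKM in KO_TAC, against 356 ± 30.00 and 1035 ± 66.5 FPKM in WT_TAC (n = 5 each). The log2 changes were -0.19 ± 0.04 for Atp5pb, -0.18 ± 0.05 for Sdhd, -0.18 ± 0.06 for Sdha and -0.20 ± 0.05 for Atp5c1, with limma Benjamini-Hochberg adjusted p of 0.011, 0.0258, 0.0449 and 0.0211. Of all genes 11.3% were called, 4.78% as lower and 6.53% as higher, so the 4 of 47 members are near that background. With a term for the split shown by Ndufb4c no member passed as lower (Atp5pb limma adjusted p = 0.21). That split nearly follows genotype, and the term rests on WT_TAC replicate 5 alone. With the replicate number as a block 2 members passed as lower, and with only the compared groups fitted 1 did. No overlap with the KO_TAC libraries lower was seen in 2 of 47 members, and higher in 0, against 2.87% and 3.83% of all genes. The median over members was -0.09 (0.02 for all genes), and by complex -0.17 for complex II, -0.06 for complex III, -0.09 for complex IV and -0.09 for complex V. Leaving out 1 library gave between 1 (WT_TAC replicate 4 or KO_TAC replicate 4) and 9 (KO_TAC replicate 2) members called lower, 2 without WT_TAC replicate 1 or KO_TAC replicate 1, and the Sdha call ended without any of 13 of the 17 libraries (adjusted p up to 0.113).

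The genotype difference in the TAC response itself was tested as an interaction, the KO_TAC change minus the WT_TAC change. It lay below 0 for 46 of 47 members, with a median of -0.25 against 0.03 for all genes. Members shifted together within a library, by a mean log2 from WT of 0.12 to 0.25 in KO and -0.46 to -0.21 in KO_TAC. The counts of members given here therefore repeat the shifts of a few libraries and are not separate evidence. By complex the medians were -0.27 for complex II, -0.24 for complex III, -0.22 for complex IV and -0.25 for complex V. The interaction of 1 member passed, that of Atp5pb, where 0.93% of all genes were called, 0.553% as lower and 0.377% as higher. Atp5pb was at 559, 613, 609.6, 551 and 624 FPKM in KO_TAC and 886, 841 and 894 FPKM in KO, and at 696, 670.4, 635, 696 and 676 FPKM in WT_TAC and 794, 791, 783 and 789.7 FPKM in WT. KO replicate 2 held 764 FPKM, below all WT libraries. The fitted KO libraries were thus the highest and the KO_TAC libraries the lowest, and the interaction was -0.34 ± 0.07 (limma with Benjamini-Hochberg adjusted p = 0.0339). An unadjusted limma p under 0.05 was reached by 32 of the 47 members, all below 0. It was reached in either direction by 2245 of the 11937 tested genes. Among these members were Cox7a1 at -0.51 ± 0.14 and Cycs at -0.36 ± 0.10 (limma adjusted p = 0.0674 and 0.0791).

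The interaction takes in the sham difference as well as the TAC difference, and the same KO libraries enter both. The Atp5pb call ended without any of 11 libraries (WT replicates 1 to 4, WT_TAC replicates 2, 4 and 5, KO replicates 1 and 4, and KO_TAC replicates 1 and 4), with adjusted p from 0.0108 to 0.0723 over all 17. Without KO_TAC replicate 2, 9 members passed, and without KO_TAC replicate 5, 2. With KO replicate 2 in place of replicates 3 and 4 no interaction passed and the median was -0.12. Nppa, a gene that heart muscle raises under load, was at 2191 to 7472 FPKM in KO_TAC and 645.5 to 2669 in WT_TAC, against 83.3 to 112 in KO and 89.3 to 267 in WT, and 4 of the 10 fibroblast markers were higher in KO_TAC than in WT_TAC and 0 lower. Their part in the interaction was not tested.

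**Figure D4:**
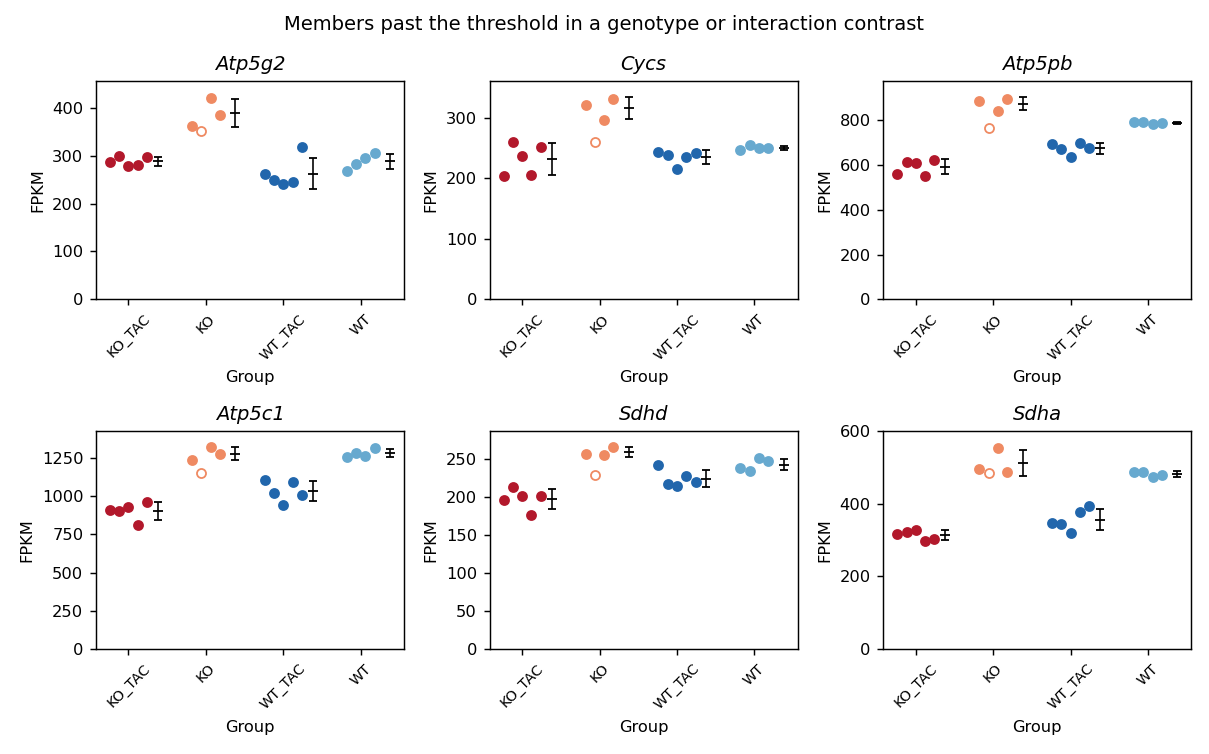
FPKM per library of the 6 members past the threshold in a comparison of genotypes or in the interaction, with mean and SD beside the points; open circles are KO replicate 2, outside the mean. For Atp5g2 and Cycs the 3 KO libraries lie above the WT libraries and the open circle lies below those 3, and Atp5pb is lowest in KO_TAC.

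Other genes of the chain and its supply were read from the same fit. Over all tested genes, 11.2% were called lower and 10.7% higher in WT_TAC, and 17.7% lower and 21.1% higher in KO_TAC. Complex I, the other entry of electrons, fell in 17 of 37 subunits in WT_TAC and in 35 of 37 in KO_TAC, with medians of -0.20 and -0.43 and none higher. Its iron-sulfur subunit Ndufs1 changed by -0.36 ± 0.05 and -0.64 ± 0.06. Enzymes of the tricarboxylic acid cycle, which feeds the chain, fell in 11 of 13 in WT_TAC and in 13 of 13 in KO_TAC, with medians of -0.27 and -0.48. Suclg1, a subunit of succinyl-CoA ligase, which makes the succinate that complex II uses, changed by -0.29 ± 0.06 and -0.65 ± 0.06, and citrate synthase (Cs) by -0.30 ± 0.05 and -0.52 ± 0.06. These changes of Ndufs1, Suclg1 and Cs all passed in limma with Benjamini-Hochberg adjustment.

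Assembly factors build complexes II to V without being part of them. Of the 38 tested, 3 rose and 3 fell in WT_TAC, with a median of 0.01. These counts are no more than the shares of all genes called there, 10.7% higher and 11.2% lower. In KO_TAC 3 rose and 15 fell, with a median of -0.15, against 21.1% and 17.7% of all genes. Cox19, a copper-handling factor of complex IV, rose by 0.83 ± 0.08 in WT_TAC and 1.01 ± 0.09 in KO_TAC (limma with Benjamini-Hochberg adjusted p = 1.02e-05 and 3.13e-07). Uqcc3, a complex III factor, rose by 0.31 ± 0.07 and 0.22 ± 0.08, while its partner Uqcc2 fell with a log2 change of -0.16 ± 0.06 and -0.32 ± 0.06. In KO_TAC, the complex V factors Tmem70 and Atpaf1 fell with a log2 change of -0.40 ± 0.08 and -0.34 ± 0.07. Surf1, needed for complex IV, fell with a log2 change of -0.27 ± 0.08 in WT_TAC. Higd1a, a small inner membrane protein tied to complex IV, rose by 0.17 ± 0.06 in WT_TAC and fell with a log2 change of -0.20 ± 0.06 in KO_TAC. Without TAC, Higd1a stood 0.37 higher in KO than in WT on the log2 scale, the highest such change of the tested assembly factors. Its fall in KO_TAC is measured from that KO level.

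Of 7 genes for the carriers, channels and inhibitor that serve ATP synthase, 3 fell and 1 rose in WT_TAC and 4 fell and 0 rose in KO_TAC. The shares of all genes were 11.2% lower and 10.7% higher in WT_TAC, and 17.7% lower and 21.1% higher in KO_TAC. The phosphate carrier Slc25a3 fell with a log2 change of -0.28 ± 0.06 and -0.45 ± 0.07, and the outer membrane channels Vdac1 and Vdac3 fell in both. The adenine nucleotide carriers parted: Slc25a5, the widely expressed form, rose by 0.36 ± 0.08 in WT_TAC, and Slc25a4, the heart and muscle form, fell with a log2 change of -0.36 ± 0.07 in KO_TAC. Slc25a5 did not pass in KO_TAC (0.13 ± 0.09), nor Slc25a4 in WT_TAC (-0.08 ± 0.07).

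Of 15 regulators of respiratory genes, 1 rose and 1 fell in WT_TAC, and 0 rose and 5 fell in KO_TAC. The WT_TAC counts are no more than the shares of all genes, 10.7% higher and 11.2% lower. In KO_TAC these shares were 21.1% and 17.7%. Ppargc1a, a coactivator of mitochondrial genes, rose in WT_TAC, at 40.1 FPKM on average against 21.3 FPKM in WT, by 0.87 ± 0.21 on the log2 scale (limma with Benjamini-Hochberg adjusted p = 0.00797). In KO_TAC its change of 0.38 ± 0.23 did not pass. Esrra and Ppara, nuclear receptors that act on genes of oxidative metabolism, fell in KO_TAC with log2 changes of -0.42 ± 0.07 and -0.36 ± 0.08, and Gabpa, an ETS factor, fell with a log2 change of -0.19 ± 0.06 in WT_TAC and -0.28 ± 0.06 in KO_TAC. Gabpa shares exon bases with the member Atp5j on the opposite strand, which fell too. Of 17 genes for protein import and inner membrane organisation, 3 rose and 2 fell in WT_TAC, and 1 rose and 9 fell in KO_TAC. The same shares of all genes stand beside these counts.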

How the data were processed

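Per the labels' protocols, SMARTER mRNA-Seq libraries were made from heart RNA purified on Qiagen columns. The authors deposited 1 table of 34714 genes in 18 columns, all of which were used (0 unused). Its unit is not named; the deposited values were read as FPKM, because value times transcript length summed to 0.98 to 1.049 of the total that FPKM gives in every library, over 25731 genes. The build is mm10, per the submitters' processing notes; not given in the sources used here are the aligner and counter.

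From these values log2(FPKM + 1) was computed, and a gene entered the fit with 3 or more fitted libraries at 1 FPKM or above. One group-means model over 17 libraries was fitted with limma 3.58.1 (trend, robust) in R 4.3.3, with 5 contrasts, checked on simulated data. Members and lists were chosen with earlier results of these data known. The promoter motifs for NRF1 and YY1 were shortened and that for MEF2 dropped after a first search with longer forms. Named members were the 5 isoform pairs of complex IV, core subunits, the lowest and highest change per complex, those past the threshold in genotype contrasts and those below the filter, with up to 4 per wider list and TAC contrast (smallest adjusted p). Replicate numbers did not pair the libraries: over 22 same-numbered pairs the correlation of deviations ran from -0.24 to 0.16. Locations are from GENCODE M21 for 47 members and RefSeq for 2 (Atp5md and Atp5pb); copies were searched with blastn 2.17.0.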

Additional observations from a re-analysis of the deposited data

Results flagged for a closer look

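In 123 groups of 4 or 5 libraries (31 named members with values above 0, 5 means over a complex or all members, and 5 isoform shares, in KO_TAC, WT_TAC and WT), 6 single libraries stood apart from the rest of their group by the gap relative to the range; chance flags about 1 in 20 groups. Cox6b2 was at 3.93 FPKM in KO_TAC replicate 3, against 0.289 to 1.22 in the other KO_TAC libraries, and its share with Cox6b1 there was 0.342%, against 0.0284% to 0.108%. Atp5b was at 2272 FPKM in KO_TAC replicate 4, against 2543 to 2649.9. Cox8b made up 76.6% of Cox8b and Cox8a in KO_TAC replicate 2, against 71.8% to 72.8%. Atp5o was at 831 FPKM in WT_TAC replicate 3, against 963 to 1009.9. Atp5g2 was at 318.5 FPKM in WT_TAC replicate 5, against 239.9 to 261. The TAC response of Atp5pb differed between KO and WT hearts by -0.34 on the log2 scale, by the interaction term of the limma fit.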

How the results depend on the processing

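No result changed sign past the threshold, and every complex kept a median below 0 after TAC, in each alternative run. Leaving out 1 library in turn gave 23 to 36 members lower in WT_TAC and 41 to 43 lower in KO_TAC, 0 to 2 higher in KO than WT, 1 to 9 lower and 0 to 1 higher in KO_TAC than WT_TAC, and 0 to 9 interactions below 0. With all 18 libraries, 1 member was higher in KO. With the replicate number as a block, 2 were lower in KO_TAC than WT_TAC and 3 interactions passed; 3 of 17 libraries correlated best with their own number. With no filter on low values, 1 was higher in KO and 0 interactions passed. With median-ratio scaling, 7 were lower in KO_TAC than WT_TAC and 6 interactions passed, and with only the compared groups fitted, 1 was lower. With a term for the library split, 0 were higher in KO, 0 lower in KO_TAC than WT_TAC and 0 interactions passed. That term rests on WT_TAC replicate 5 alone, and with it the KO medians were 0.00940 (complex II) and 0.10 (complex III). Those of KO_TAC against WT_TAC were -0.26 and -0.17. Without WT_TAC replicate 5 and KO_TAC replicate 2 together, 1 was higher in KO_TAC than WT_TAC and 10 interactions passed. With a log2 change of at least 0.5 also required, 2 were lower in WT_TAC, 21 in KO_TAC, and 0 passed in the genotype contrasts and the interaction. With KO replicate 2 in place of replicates 3 and 4, chosen after seeing the data, 0 were higher in KO and 0 interactions passed. The medians for all members and complexes II, III, IV and V were then -0.36, -0.50, -0.35, -0.35 and -0.38 in KO_TAC against KO, 0.055, 0.047, 0.093, 0.0304 and 0.0301 in KO against WT, and -0.12, -0.19, -0.14, -0.093 and -0.11 for the interaction. The causes were not tested. The depth is unknown, so no counting error can be given, and 3 to 5 libraries a group limit what a difference can show.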
